A study of Mus musculus with 25 samples.

Results

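The mitochondrial genome is a small circular DNA that is present in many copies per cell and codes for RNAs that never leave the organelle. Entries of the deposited table whose gene name begins with "mt-" were taken as its genes, and there were 37 of them among 54429 entries. They comprised 2 ribosomal RNAs, 13 protein genes and 22 transfer RNAs, which is the full gene set of the mouse mitochondrial chromosome (chromosome M). All of the protein genes encode subunits of the respiratory chain or of ATP synthase, and the ribosomal and transfer RNAs serve the organelle's own ribosomes. The genome is transcribed into long precursors that cover many genes. The transfer RNAs lie between the other genes, and their excision frees the neighbouring messenger and ribosomal RNAs. A change in a single mature RNA can therefore differ from that of its neighbours on the same precursor. In astrocytes, the glia that support neurons and their metabolism, respiration runs beside a high rate of glycolysis.

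RNA was sequenced from astrocytes of the cortex of C57BL/6J mice, purified by immunopanning on an antibody to the adhesion protein HepaCAM and kept in culture, in 25 libraries of 9 groups. Cells treated with an EGFR inhibitor (n = 3) were set against cells with DMSO, the solvent (n = 3), and cells treated with a P53 inhibitor (n = 3) against a DMSO control of their own (n = 3). Both inhibitors went into the medium on day 2 in vitro. Cells from which HBEGF, a growth factor that activates the EGF receptor, was withdrawn (n = 2) were set against cells given HBEGF (n = 2), with the factor added or withdrawn when the culture was prepared. Cells taken on days 2, 7 and 14 in vitro gave 3 libraries a day. The sources used here name neither the inhibitors nor their doses, and give neither the harvest day of treated cells nor the age of the mice. Whether replicates were separate cultures or animals is not stated either, so p-values measure the spread between these libraries, which may be technical.

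Each library held 4011136 to 9694983 counted reads (median 6109330), and 8903 to 9865 genes per library reached 1 RPKM (reads scaled by gene length and library size). Astrocyte markers were present (Sox9 32.5 to 127 RPKM, Aldoc 18.4 to 105, Gfap 0.674 to 71.5). Slc1a3 had 9.82 to 22.5 RPKM, Aqp4 1.01 to 28.0 and Gja1 2.32 to 21.7. Slc1a2 (1.06 to 7.91) and Aldh1l1 (0.377 to 2.36) were low. The oligodendrocyte lineage factors Olig1 (44.4 to 345) and Olig2 (33 to 153) were also high, while Tmem119 of microglia was at 0 in all 25 libraries. The precursor markers Pdgfra (0.665 to 2.86) and Cspg4 (0.391 to 1.43) were low, so the precursor sum is mostly Olig1 and Olig2. The summed level ranged over the libraries from 67.8 to 372 RPKM for 8 astrocyte markers, 78.6 to 501 for 4 precursor markers, 0.288 to 3.8 for 5 neuronal markers, 0.0421 to 24.3 for 6 microglial markers and 0.17 to 21.9 for 4 oligodendrocyte markers. Values were scaled over whole gene spans, which lowers intron-rich genes relative to others. Levels of different markers, and sums of different cell types, are therefore not to be ranked against each other. Fewer cells of a type and less RNA per cell cannot be told apart in such bulk samples.

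The mitochondrial genes fell into 3 tiers of level, in the order of their length-scaled values. The ribosomal RNAs mt-Rnr2 (the large subunit RNA, chrM:1094-2675) and mt-Rnr1 (the small subunit RNA, chrM:70-1024) had medians of 112107 and 36325 RPKM over the 25 libraries. Of the 13 protein genes, 7 were counted at over 100 RPKM in every library. Their medians were 4111 RPKM for mt-Co1 (catalytic subunit of cytochrome c oxidase, complex IV), 3293 for mt-Cytb (cytochrome b of complex III), 2994 for mt-Nd1, 2442 for mt-Nd5, 1401 for mt-Nd6, 1111 for mt-Nd4 and 588 for mt-Nd2 (all 5 of complex I). Ranges over the libraries overlapped between neighbours in this order, except between mt-Rnr1 (lowest library 19551 RPKM) and mt-Co1 (highest library 5654 RPKM). Within every library mt-Rnr2 exceeded mt-Rnr1, by 1.78-fold or more. The third tier was transfer RNA, with medians of up to 121 RPKM (mt-Tl1), and only 78 to 407 reads in all per library. At 59 to 75 bases the transfer RNAs are shorter than the other genes, and how well such short RNAs were captured was not tested.

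The other 6 protein genes were almost uncounted. The complex V subunit genes mt-Atp8 and mt-Atp6, the complex IV genes mt-Co2 and mt-Co3 and the complex I genes mt-Nd3 and mt-Nd4l had medians of 0 RPKM, apart from mt-Nd3 at 0.408 RPKM. No read was counted for mt-Atp8 and mt-Nd4l in any library, mt-Co2 and mt-Co3 had a value above 0 in a single library each, and mt-Atp6 in 2. A count of 0 allows up to 3 reads, which for mt-Co2 equals 0.452 RPKM in the deepest library and 1.09 RPKM in the shallowest. These limits cover counting error only. Of the transfer RNAs, mt-Tw, mt-Ty, mt-Ts1, mt-Td, mt-Tk, mt-Tg and mt-Th were listed at 0 in all 25 libraries.

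**Figure D1:**
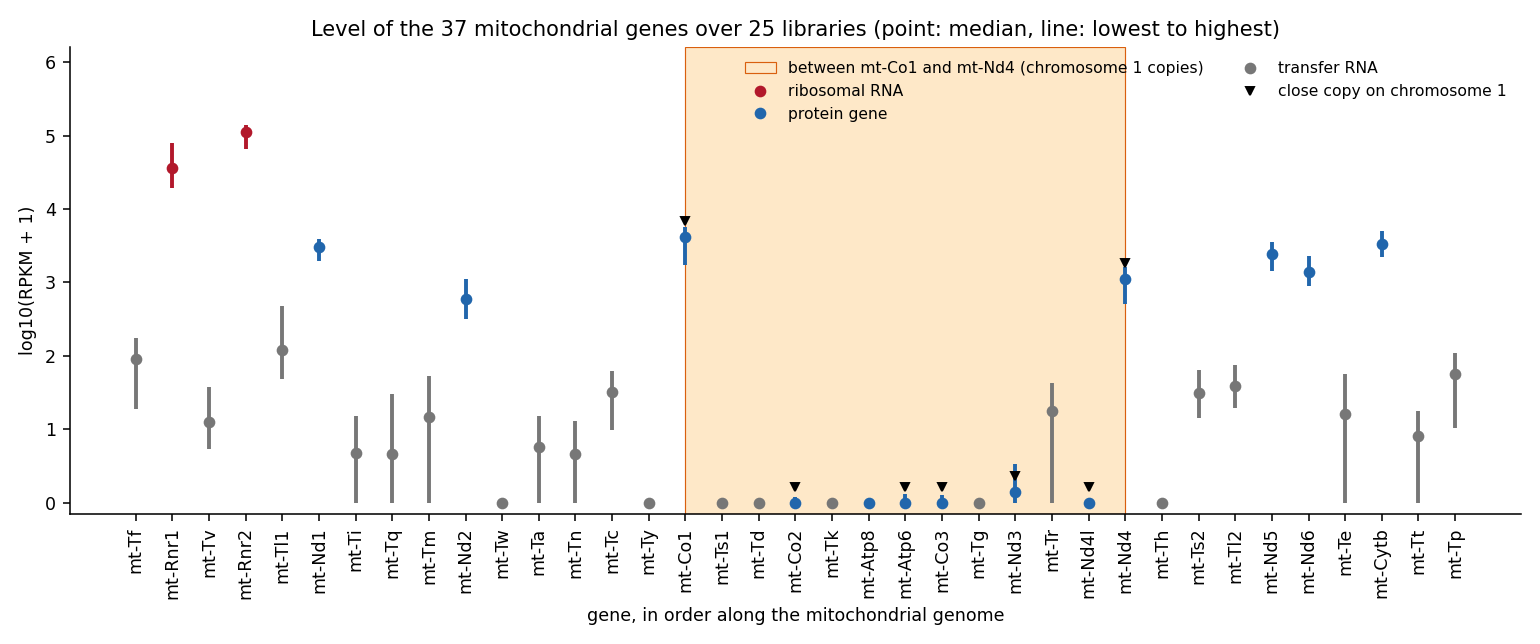
Level of each mitochondrial gene as log10(RPKM + 1), in gene order; points are medians and lines run from the lowest to the highest of 25 libraries. Ribosomal RNAs stand at the top, and 9 of the 11 genes that lie wholly inside the shaded stretch between mt-Co1 and mt-Nd4 have a median of 0.

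The uncounted protein genes form 1 block of the genome, and each of them apart from mt-Atp8 matched an annotated pseudogene on chromosome 1 at 99.7% identity or more. The match was 100% over 681 of 684 bases for mt-Co2 (pseudogene Gm28661), 678 of 681 for mt-Atp6 (Gm10925), 783 of 784 for mt-Co3 (Gm28437) and 294 of 297 for mt-Nd4l (Gm10222). For mt-Nd3 (Gm28438) it was 99.7% over 345 of 348 bases, with 1 mismatch. The pseudogenes lie in the mitochondrial gene order on the minus strand, from chr1:24611535-24612410 (Gm28439) to chr1:24615706-24616197 (Gm29216). Their spacing is that of the mitochondrial genome for 5 of 6 neighbouring pairs, with 140 bases between the mt-Co1 and mt-Co2 matches, 233 between those of mt-Co2 and mt-Atp6, and 69 between those of mt-Co3 and mt-Nd3 in both places. Between mt-Nd3 and mt-Nd4l it differs by a base, with 73 on the mitochondrial genome and 74 between the copies. The stretch corresponds to 4653 bases, chrM:6390-11042. The following windows (GRCm38, GENCODE M21 transcripts) show how little separates the mitochondrial genes from these nuclear entries; capitals in the mt-Atp6 pair (chrM:7927-7986, plus strand; chr1:24614592-24614651, minus strand) mark the start codon, and capitals in the pairs of mt-Nd3 (chrM:9459-9486; chr1:24613092-24613119) and mt-Co1 (chrM:6390-6418; chr1:24616160-24616188) mark the single base that differs over the whole match.
mt-Atp6: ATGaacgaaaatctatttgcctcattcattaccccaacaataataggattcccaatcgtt
Gm10925: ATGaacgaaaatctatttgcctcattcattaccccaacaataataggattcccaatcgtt
mt-Nd3: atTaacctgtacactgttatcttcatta
Gm28438: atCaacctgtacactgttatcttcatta
mt-Co1: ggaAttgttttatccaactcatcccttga
Gm29216: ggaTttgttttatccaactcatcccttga

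The block ends inside counted genes. The chromosome 1 match covers bases 1063 to 1545 of mt-Co1 (483 bases, 99.8% identity) and bases 1 to 876 of mt-Nd4 (100% identity). Divided by the 502 bases of mt-Nd4 outside the match, its median would be 3049.6 RPKM in place of 1111, and that of mt-Co1 over 1062 bases 5980.2 in place of 4111. Of the transfer RNAs inside the stretch, mt-Tr was counted at a median of 16.9 RPKM, and mt-Tw, mt-Ty and mt-Th, which were at 0, lie outside it. The sources used here do not say how reads that fit a gene and a copy equally well were assigned, and the part of the copies in these levels was not tested. A further pseudogene, Gm13340 on chromosome 2, matches all 1545 bases of mt-Co1 at 97.6% identity, so the 1062 bases are not free of a copy either. Levels of mt-Co1 and mt-Nd4 are therefore uncertain, as are those of mt-Nd5 (95.2% identity to Gm4076 over 954 bases) and mt-Nd2 (96.7% to Gm13339 over 510 bases). Genes that share bases are uncertain too, because the strand setting is not given: mt-Nd5 and mt-Nd6 share chrM:13552-13565 on opposite strands. For the same reason, reads of the opposite strand may be counted at any gene, among them mt-Nd6 and the minus-strand transfer RNAs.

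Tests were run by limma on log2(RPKM + 1) over the 13850 genes with at least 1 RPKM in at least 2 libraries, and a gene was called where its Benjamini-Hochberg p, adjusted over all genes of a comparison, was below 0.05. Of the mitochondrial genes 25 entered: both ribosomal RNAs, 8 protein genes (mt-Nd3 on few reads) and 15 transfer RNAs. The mitochondrial genes together took 13.4 to 31.5% of the counted reads (median 23.4%), nearly all of it ribosomal RNA. Protein genes took 1.13 to 2.68%, and transfer RNAs 0.00185 to 0.00655%.

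**Figure D2:**
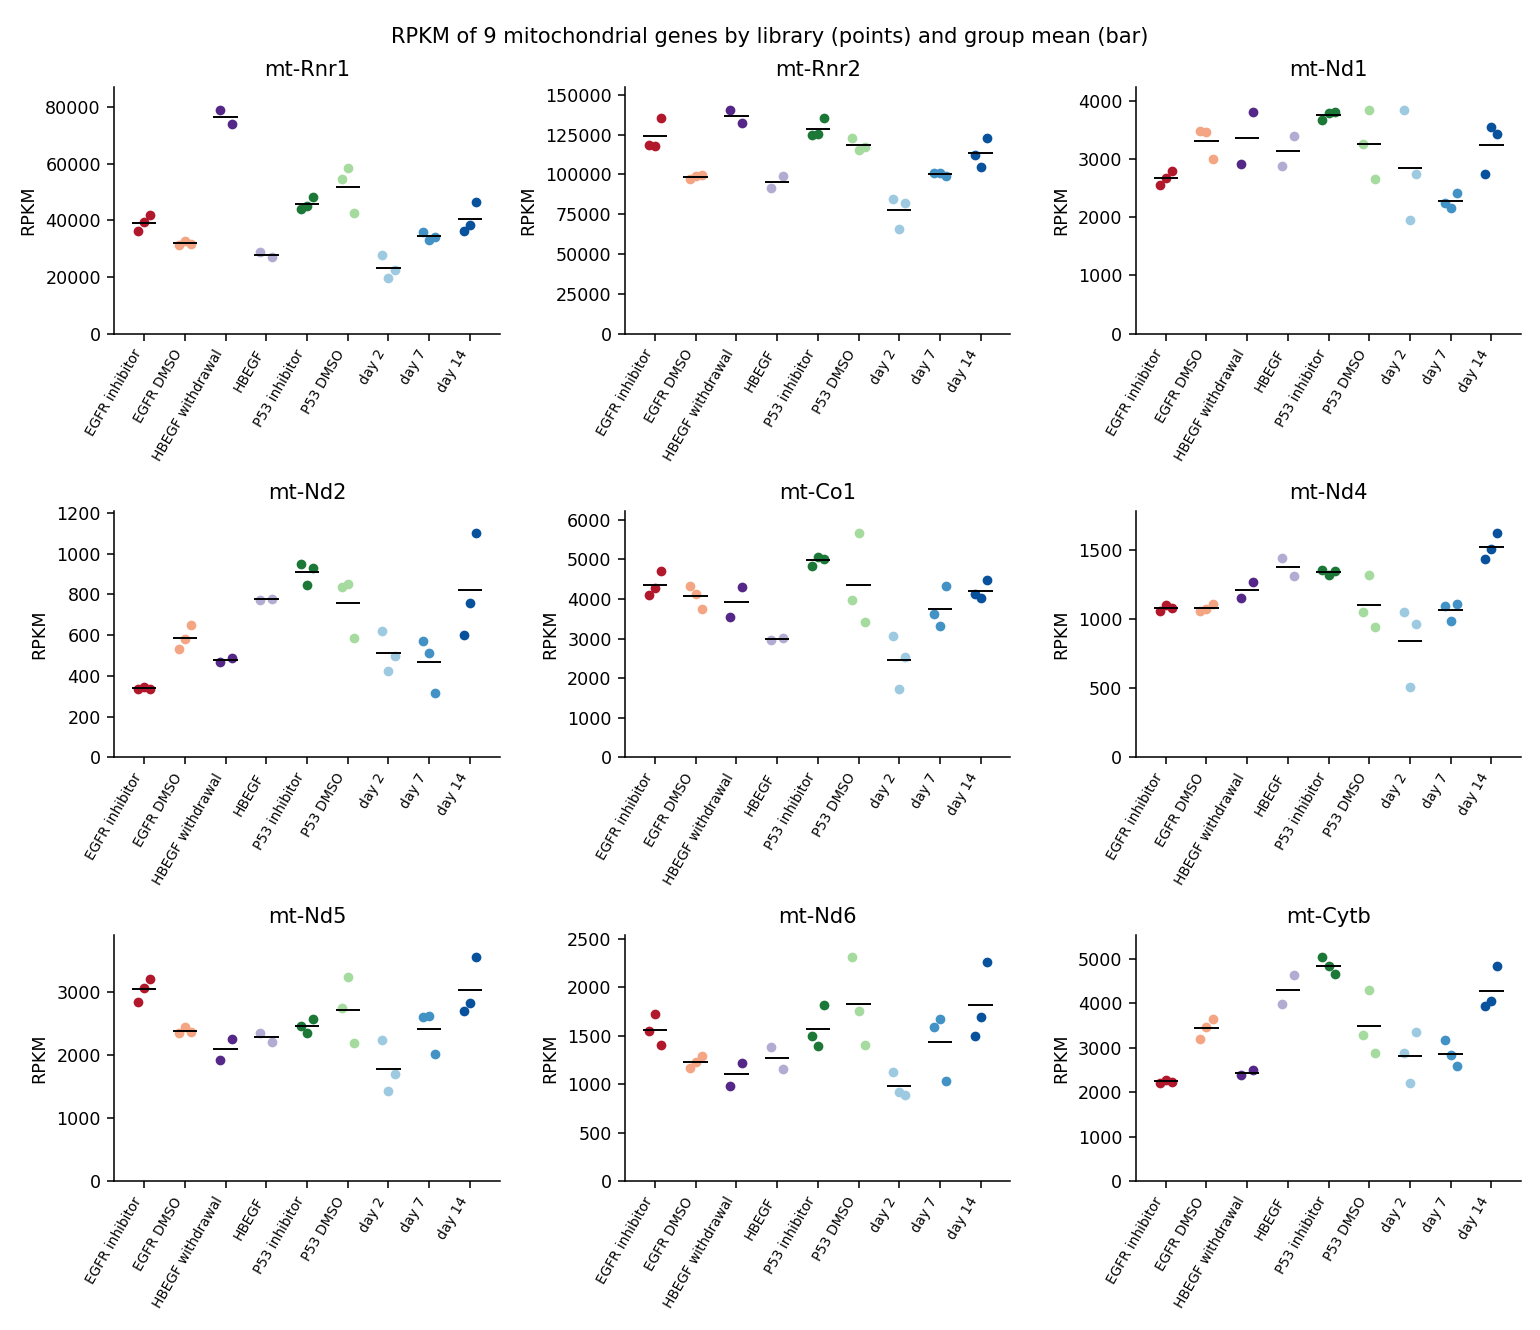
RPKM of the 9 genes above 100 RPKM in every library; points are libraries, bars group means. The HBEGF withdrawal libraries at 78991 and 73877 RPKM of mt-Rnr1 stand above all others, and mt-Cytb is low with the EGFR inhibitor and after HBEGF withdrawal.

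With the EGFR inhibitor, ribosomal RNA of the large subunit rose while cytochrome b and mt-Nd2 fell. Levels of mt-Rnr2 were 118767, 117796 and 135321 RPKM with the inhibitor, against 97257, 99037 and 99645 with DMSO. All inhibitor libraries lay above all controls (1.26-fold; log2 change 0.33 ± 0.09 SE, limma adjusted p = 0.00899), although without EGFR inhibitor replicate 3 the call was lost (adjusted p = 0.057). For mt-Rnr1 the values were 36325, 39504 and 41686 RPKM with the inhibitor, against 31353, 32787 and 31599.5 with DMSO. These groups did not overlap either, but the log2 difference of 0.29 ± 0.13 missed the threshold (adjusted p = 0.0775). It passed without P53 DMSO replicate 3 (adjusted p = 0.0483) or day 2 replicate 1 (0.0469), with scaling to reads outside the mitochondrial genome (0.0454), by voom (0.0257), and in a fit of these 6 libraries alone (0.0146).

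Cytochrome b RNA stood at 2217, 2281 and 2223 RPKM with the EGFR inhibitor, against 3197, 3467 and 3640.3 with DMSO. The inhibitor libraries lay close together and below every control (0.652-fold; log2 change -0.61 ± 0.15, adjusted p = 0.00249). For mt-Nd2, a membrane arm subunit of complex I, the values were 337, 345 and 337 RPKM with the inhibitor, against 532, 582 and 649 with DMSO (0.578-fold; log2 change -0.78 ± 0.22, adjusted p = 0.00759), again without overlap. The other complex I genes counted in every library did not pass, although voom called mt-Nd5 (adjusted p = 0.042) and the fit of these 6 libraries alone called mt-Nd5 (0.00679), mt-Nd1 (0.0275) and mt-Nd6 (0.0341). Levels of mt-Nd5 averaged 3036 ± 184 against 2381 ± 54.1 RPKM (SD, n = 3 each; adjusted p = 0.0934), of mt-Nd6 1558 ± 161 against 1227 ± 64.7 (adjusted p = 0.204) and of mt-Nd1 2670.2 ± 118 against 3317 ± 280 (adjusted p = 0.207). The means of mt-Nd4 were 1081 and 1082 RPKM, and the sign of a difference so near 0 turned with the scaling. For mt-Co1 the groups overlapped (4361 ± 304 against 4065 ± 303 RPKM, adjusted p = 0.703).

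Over the 25 tested mitochondrial genes 2 were higher and 4 lower with the EGFR inhibitor, or 6 in all, beside 38.5% of all genes called in this comparison (16.3% higher and 22.2% lower). The median log2 difference of the 25 was -0.28, against -0.02 over all genes. By class it was 0.31 for the 2 ribosomal RNAs, 0.05 for the 8 protein genes and -0.45 for the 15 transfer RNAs, which held few reads. The mitochondrial share of counted reads was 25.4 ± 1.84% with the inhibitor, against 20.7 ± 0.233% with DMSO (SD, not tested). The other calls rest on few reads. The complex I gene mt-Nd3 had 2, 5 and 2 reads with the inhibitor and 0, 1 and 0 with DMSO (log2 change 1.08 ± 0.25, adjusted p = 0.00226). The transfer RNA for phenylalanine, mt-Tf, had 7, 13 and 13 reads against 34, 38 and 51 (17.9, 32.3 and 33.6 RPKM against 80.2, 82.8 and 90.7; log2 change -1.61 ± 0.36, adjusted p = 0.00168). The transfer RNA for isoleucine, mt-Ti, had 1, 1 and 0 reads against 6, 3 and 6 (log2 change -2.26 ± 0.84, adjusted p = 0.0397). Its call was lost without EGFR inhibitor replicate 3 (adjusted p = 0.175), DMSO replicate 1 (0.116) or DMSO replicate 3 (0.0881), and with a pseudocount of 0.1 (adjusted p = 0.101) or no filter (adjusted p = 0.071).

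A nuclear entry annotated as ribosomal RNA, CT010467.1 on chromosome 17, was read beside these genes. In the EGFR experiment it had 6160, 6907 and 6224 RPKM with the EGFR inhibitor, against 3048, 1535 and 1815 with DMSO. After HBEGF withdrawal it had 7217 and 7500.1 RPKM, against 2265 and 985 with HBEGF (log2 change 2.30 ± 0.83, adjusted p = 0.0404; with the EGFR inhibitor 1.65 ± 0.67, adjusted p = 0.0617). With the P53 inhibitor it ran the other way, at 1088, 1213 and 994 RPKM against 3338, 1931 and 2979 with DMSO (adjusted p = 0.671). On days 2, 7 and 14, over which both mitochondrial ribosomal RNAs rose, it averaged 1481 ± 1174, 2001 ± 1224 and 1465 ± 861 RPKM (SD, n = 3 each). Between days 2 and 14 it was not called (limma adjusted p = 0.702). Its part in the mitochondrial results was not tested.

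After HBEGF withdrawal the small ribosomal RNA showed the largest change of the 9 ribosomal RNA and protein genes above 100 RPKM in every library, in any of the 6 comparisons. Levels of mt-Rnr1 were 78991 and 73877 RPKM after withdrawal, against 28808 and 26925 with HBEGF, a 2.74-fold increase (log2 change 1.46 ± 0.16, limma adjusted p = 2.61e-06). The large subunit RNA mt-Rnr2 rose less, to 140741 and 132157 RPKM after withdrawal, against 91202 and 98885 with HBEGF (1.44-fold; log2 change 0.52 ± 0.11, adjusted p = 0.00172). Cytochrome b fell to 2380.5 and 2496 RPKM after withdrawal, against 3989 and 4625 with HBEGF (0.566-fold; log2 change -0.82 ± 0.18, adjusted p = 0.00172). None of the 3 overlapped between groups. With 2 libraries in a group this does not set them apart, since uncalled genes such as mt-Nd4 (limma adjusted p = 0.593) did not overlap either.

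The boundary at which the 2 ribosomal RNAs part is the transfer RNA for valine, mt-Tv, printed here in capitals with 30 bases of mt-Rnr1 before it and 30 of mt-Rnr2 after it (chrM:995-1123, plus strand, GRCm38), because both RNAs are cut from 1 precursor on either side of it.
mt-Rnr1 to mt-Rnr2: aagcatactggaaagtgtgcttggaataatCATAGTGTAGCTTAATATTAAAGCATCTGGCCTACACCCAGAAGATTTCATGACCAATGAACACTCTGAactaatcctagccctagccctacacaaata
The mt-Rnr2 to mt-Rnr1 ratio of RPKM was 1.78 and 1.79 in the withdrawal libraries, against 3.17 and 3.67 with HBEGF. These were the lowest 2 ratios of all 25 libraries. Control groups differed in this ratio as well, with P53 DMSO libraries at 2.25, 1.98 and 2.76 and EGFR DMSO libraries at 3.02 to 3.15. An exact permutation test of 2 against 2 libraries cannot go below p = 0.33, which is the value it gave (two-sided). For the same ratio, exact permutation gave p = 0.6 with the EGFR inhibitor, 0.1 with the P53 inhibitor and 0.075 over the days.

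The remaining mitochondrial genes did not pass after withdrawal. For mt-Nd2 the libraries stood at 466 and 490.2 RPKM after withdrawal, against 772 and 780.1 with HBEGF (log2 difference -0.70 ± 0.27, adjusted p = 0.0524). It passed with a filter of 5 RPKM (adjusted p = 0.0368), with voom (adjusted p = 0.0412), and without P53 DMSO replicate 3, day 2 replicate 1 or 2, day 7 replicate 1 or 3, or day 14 replicate 1 or 3 (adjusted p between 0.0235 and 0.0497). Levels of mt-Co1 were 3553 and 4296 RPKM against 2957 and 3013 (adjusted p = 0.203). For mt-Nd1, mt-Nd4, mt-Nd5 and mt-Nd6 adjusted p lay between 0.588 and 0.817, and the signs of the last 3 turned with the scaling to reads outside the mitochondrial genome. Of 25 tested genes 2 were higher and 1 lower, 3 in all, beside 32.6% of all genes called. The median log2 difference of the 25 was -0.18, against -0.10 over all genes. By class it was 0.99 for the 2 ribosomal RNAs, -0.19 for the 8 protein genes and -0.37 for the 15 transfer RNAs. The mitochondrial share of counted reads was 30.8 ± 1.09% after withdrawal, against 19.7 ± 0.786% with HBEGF (SD, not tested). In a fit of these 4 libraries alone the calls were lost (adjusted p = 0.0736 for mt-Rnr1, 0.0888 for mt-Rnr2 and 0.0787 for mt-Cytb), with 0 genes called in all and 3926 at an unadjusted p under 0.05.

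Scaling bears on these values, since a larger share of ribosomal RNA leaves less for other genes. Scaling to reads outside the mitochondrial genome moved the median log2 difference of all genes after withdrawal to 0.00, in place of -0.10, and split all calls into 1970 higher and 2184 lower, in place of 1390 higher and 3121 lower. Median-of-ratios scaling gave 1788 and 2500. Calls for mt-Rnr1, mt-Rnr2 and mt-Cytb held under it and under median-of-ratios scaling.

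**Figure D3:**
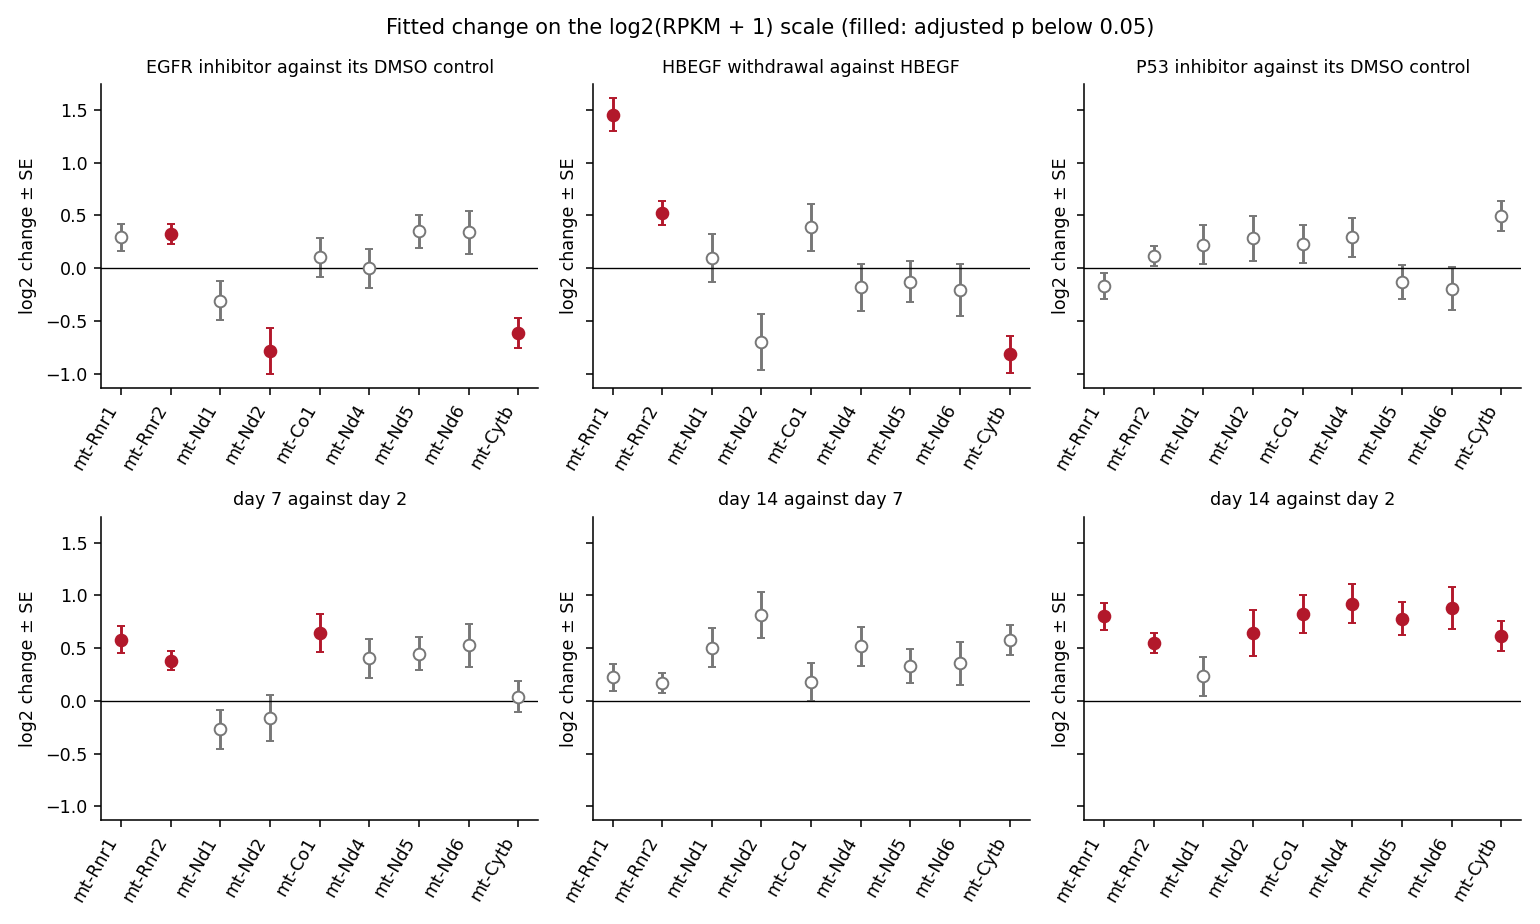
Fitted log2(RPKM + 1) change with its standard error for 9 genes in each of the 6 comparisons; filled points have adjusted p below 0.05. The withdrawal of HBEGF gives 1.46 for mt-Rnr1 and -0.82 for mt-Cytb, and 8 of the 9 genes are filled between days 2 and 14.

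The EGFR inhibitor and HBEGF withdrawal act on the same receptor pathway and share no library, so the difference of their changes was tested. Each had a control of its own, DMSO or HBEGF. The inhibitor was added on day 2, and HBEGF was withdrawn when the culture was prepared. Treatment therefore cannot be told apart from the control and the timing in these differences. The change of mt-Rnr1 was smaller with the inhibitor than with withdrawal (difference of log2 changes -1.16 ± 0.20, limma adjusted p = 0.00585). That of mt-Nd3 was larger (1.59 ± 0.40, adjusted p = 0.0494), on 0 to 5 reads per library. These were 2 of 25 genes, beside 1.83% of all genes (1.27% higher and 0.556% lower). The call for mt-Nd3 was lost in 21 of 25 fits that each left out 1 library, including each library of the 4 groups apart from EGFR DMSO replicate 2 (adjusted p up to 0.116), and under median-of-ratios scaling (0.052). With a replicate block the calls for mt-Rnr1 and mt-Nd3 were both lost. For mt-Cytb the difference of log2 changes was 0.20 ± 0.23 (adjusted p = 0.739) and for mt-Rnr2 -0.20 ± 0.15 (adjusted p = 0.562). These p-values do not show that the 2 conditions acted alike.

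With the P53 inhibitor 0 of 25 mitochondrial genes were called by limma, beside 0.181% of all genes (0.0289% higher and 0.152% lower). By voom 0 were called too, and 3 had an unadjusted p under 0.05. Levels of mt-Cytb were 5038, 4848 and 4655 RPKM with the inhibitor, against 3293, 4288 and 2885 with DMSO. The groups did not overlap, but the log2 difference of 0.49 ± 0.15 failed the correction (adjusted p = 0.22). The transfer RNA for cysteine, mt-Tc, had 27, 26 and 21 reads against 10, 9 and 5 (adjusted p = 0.206), and mt-Nd3 4, 2 and 2 reads against 0, 1 and 1 (adjusted p = 0.579). Ribosomal RNA did not pass, with mt-Rnr2 at 128651 ± 6023 against 118588 ± 4042 RPKM (adjusted p = 0.829) and mt-Rnr1 at 45738 ± 2156 against 51817 ± 8210.3 (SD, n = 3 each; adjusted p = 0.814). The DMSO libraries of this experiment varied more than the treated ones in all 7 protein genes counted in every library. For mt-Co1 the values were 4829.95, 5071 and 5009.7 RPKM with the inhibitor, against 3962, 5654 and 3414 with DMSO, and the DMSO range enclosed the treated one.

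Over the days in culture, both ribosomal RNAs and 6 protein genes rose between days 2 and 14. Comparisons between days share libraries, so their counts are not independent of each other. Between days 2 and 14, 9 of 25 genes were higher and 0 lower, beside 5.55% of all genes higher and 17.6% lower. The median log2 difference of the 25 was 0.51, against -0.11 over all genes. By class it was 0.68 for the 2 ribosomal RNAs, 0.72 for the 8 protein genes and 0.002 for the 15 transfer RNAs. Under median-of-ratios scaling 10 mitochondrial genes were higher and 0 lower, and all genes split into 1095 higher and 1324 lower, in place of 769 and 2439. The 9 were both ribosomal RNAs, 6 of the 8 protein genes and mt-Te. Levels of mt-Rnr1 were 27707, 19551 and 22538 RPKM on day 2, 35938, 33129.8 and 34249.8 on day 7 and 36209, 38300.2 and 46571 on day 14. Every later library lay above every day 2 library (day 14 against day 2 log2 change 0.80 ± 0.13, adjusted p = 0.000228). For mt-Rnr2 the values were 84812, 65742 and 82317 RPKM on day 2, 101087, 101170.0 and 98959 on day 7 and 112107, 104553 and 122925 on day 14 (0.55 ± 0.09, adjusted p = 0.000373), with the days fully apart.

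Among protein genes, mt-Nd4 had 1054, 508 and 964 RPKM on day 2, 1096, 985 and 1111 on day 7 and 1434, 1509 and 1622 on day 14 (1.81-fold between days 2 and 14; log2 change 0.92 ± 0.18, adjusted p = 0.00144). The day 14 libraries lay above all others. The light-strand gene mt-Nd6 had 1128, 917 and 884 RPKM on day 2, 1587, 1671 and 1028 on day 7 and 1493, 1694 and 2255 on day 14 (0.88 ± 0.20, adjusted p = 0.00402). Day 7 replicate 3 lay within the range of day 2. Group means of mt-Co1 were 2445 ± 675, 3746 ± 516 and 4208 ± 249 RPKM on days 2, 7 and 14 (0.82 ± 0.18, adjusted p = 0.003), of mt-Nd5 1781 ± 412, 2406 ± 338 and 3025 ± 456 (0.78 ± 0.16, adjusted p = 0.00171), and of mt-Cytb 2820.4 ± 576, 2866 ± 287 and 4279 ± 495 (SD, n = 3 each; 0.62 ± 0.15, adjusted p = 0.0048). Day 2 and day 14 libraries did not overlap for any of these 3. For mt-Nd2 they did, at 623, 423 and 496 RPKM on day 2 and 599.97, 759.6 and 1100.1 on day 14 (0.65 ± 0.22, adjusted p = 0.0385), and the call was lost without day 2 replicate 2 (adjusted p = 0.166), day 2 replicate 3 (0.0841), day 14 replicate 2 (0.0627) or day 14 replicate 3 (0.2), and with no filter (0.0721). The last protein gene, mt-Nd1, had 3837, 1954 and 2746 RPKM on day 2 and 2743, 3551 and 3435 on day 14 (adjusted p = 0.421). Day 2 replicate 2 was the lowest day 2 library for 8 of the 9 genes above 100 RPKM in every library (all but mt-Nd6), and held 13.4% mitochondrial reads, the least of all libraries.

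From day 2 to day 7, 3 genes were higher (mt-Rnr1, mt-Rnr2 and mt-Co1) and 2 lower (mt-Tf and mt-Tc), 5 in all beside 13.7% of all genes (4.12% higher and 9.59% lower). Their log2 changes were 0.58 ± 0.13 for mt-Rnr1 (adjusted p = 0.00592), 0.38 ± 0.09 for mt-Rnr2 (adjusted p = 0.0114) and 0.65 ± 0.18 for mt-Co1 (adjusted p = 0.024). Without day 2 replicate 2 the calls for mt-Rnr2 (adjusted p = 0.0548), mt-Co1 (0.143) and mt-Tf (0.0602) were lost, and without day 7 replicate 3 those for mt-Co1 (0.107) and mt-Tf (0.0865). Leaving out day 2 replicate 1 added mt-Nd5 (adjusted p = 0.0152) and mt-Nd4 (0.0388), and leaving out day 7 replicate 3 added mt-Nd5 (0.0462) and mt-Nd6 (0.0273). From day 7 to day 14, 0 of 25 passed in limma, beside 0.137% of all genes (0.0505% higher and 0.0866% lower), although 7 had an unadjusted p under 0.05. All 9 genes above 100 RPKM in every library had positive log2 differences in this step, from 0.17 to 0.81. By voom 1 gene passed, mt-Cytb (adjusted p = 0.0493), and without day 2 replicate 2 limma called mt-Nd4 (adjusted p = 0.0417). In a fit of the 9 day libraries alone all 5 calls between days 2 and 7 were lost, and of the 9 between days 2 and 14 only that for mt-Rnr1 held.

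Ratios within a library do not depend on its scaling, and 3 were set beside the levels. For mt-Cytb to mt-Rnr2 the EGFR inhibitor libraries averaged 0.0182 ± 0.00153, and the DMSO libraries 0.0348 ± 0.00184 (SD, n = 3 each). After HBEGF withdrawal it was 0.0169 and 0.0189, against 0.0437 and 0.0468 with HBEGF. These 5 treated libraries had the lowest ratios of all 25. On days 2, 7 and 14 the ratio averaged 0.0362 ± 0.00402, 0.0285 ± 0.00259 and 0.0378 ± 0.00231. The mt-Nd6 to mt-Cytb ratio, which sets the light-strand protein gene against its heavy-strand neighbour, averaged 0.695 ± 0.0627 in EGFR inhibitor libraries, against 0.358 ± 0.00589 in their DMSO controls. In P53 inhibitor libraries it averaged 0.325 ± 0.0564, against 0.532 ± 0.151 in the DMSO controls of that experiment. With the strand setting not given, heavy-strand reads may be part of the mt-Nd6 count, so this ratio may not compare the strands. None of 12 two-sided exact permutation tests of the ratios passed after adjustment. An exact permutation test of 3 against 3 cannot go below p = 0.1, and over the days the smallest exact p was 0.0321 (mt-Cytb to mt-Rnr2; adjusted p = 0.2).

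**Figure D4:**
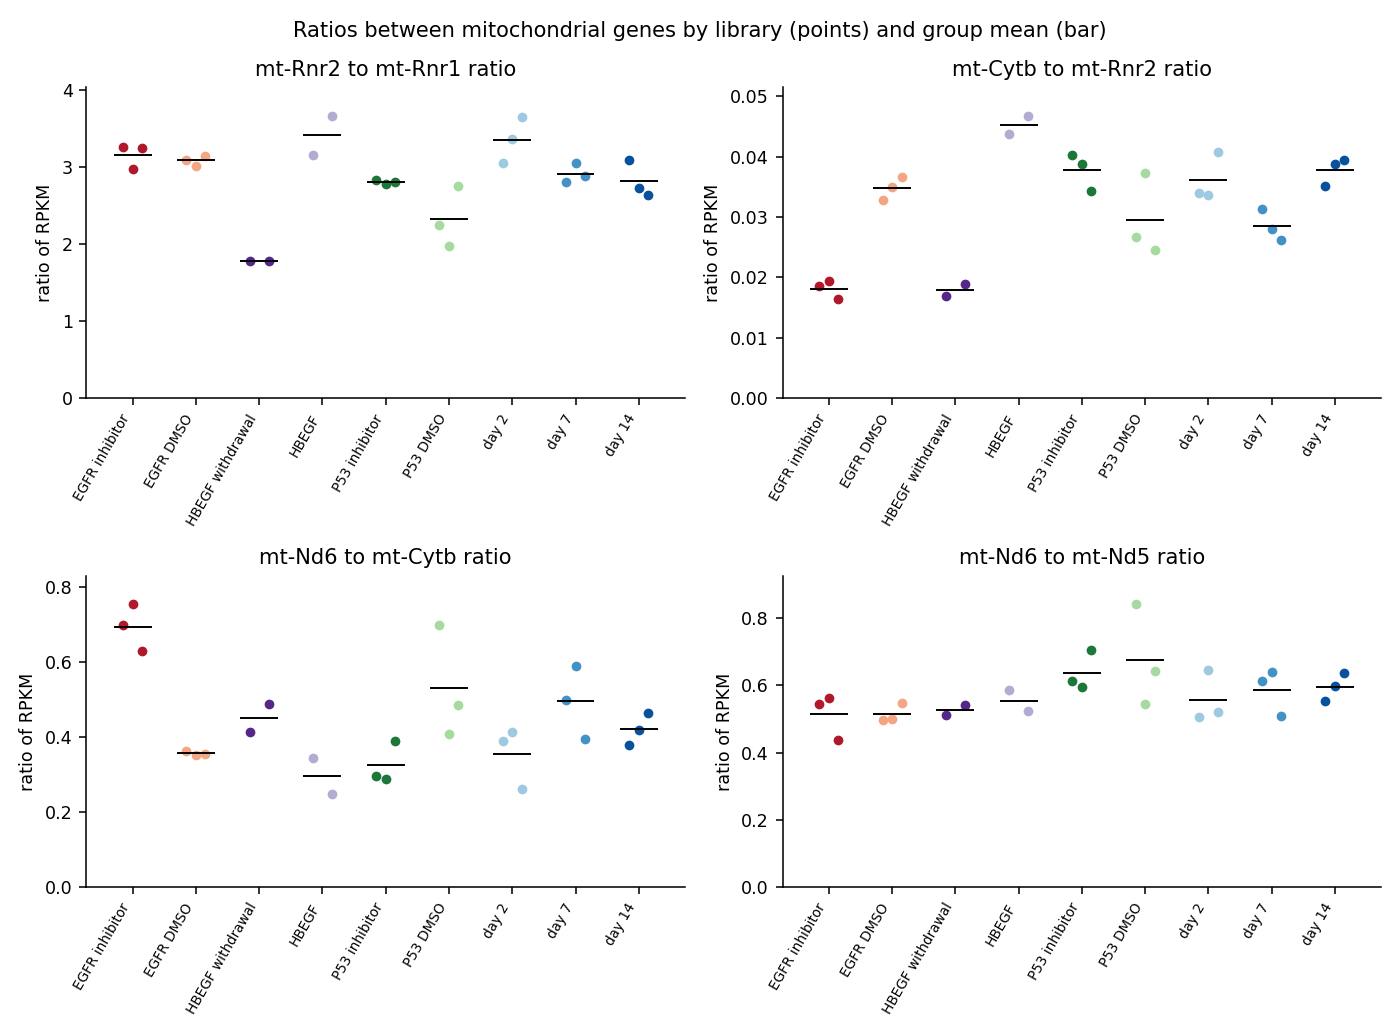
Ratios of RPKM between pairs of mitochondrial genes; points are libraries and bars group means. The mt-Rnr2 to mt-Rnr1 ratio is lowest after HBEGF withdrawal (1.78 and 1.79), and the mt-Cytb to mt-Rnr2 ratio is lowest in the EGFR inhibitor and HBEGF withdrawal libraries.

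The mt-Nd6 to mt-Nd5 ratio stayed between 0.437 and 0.842 over all libraries. The 2 genes face each other on opposite strands and share 14 bases, and it averaged 0.515 ± 0.0681 with the EGFR inhibitor, against 0.516 ± 0.0278 with DMSO. Among the reads on protein genes, cytochrome b took 12.8 ± 0.56% with the EGFR inhibitor, against 19.2 ± 1.53% with DMSO. In the HBEGF experiment it took 15.1 ± 1.22% after withdrawal, against 24.6 ± 1.91% in cells given the factor. For mt-Nd5 the share was 27.6 ± 0.469% in EGFR inhibitor libraries, against 21.2 ± 0.431% in DMSO libraries. That of mt-Co1 was 32.5 ± 0.623% after HBEGF withdrawal, against 23 ± 0.308% with HBEGF (SD over libraries). With the P53 inhibitor mt-Nd5 took 18 ± 0.691%, against 22.5 ± 0.664% with DMSO. These shares were not tested.

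**Figure D5:**
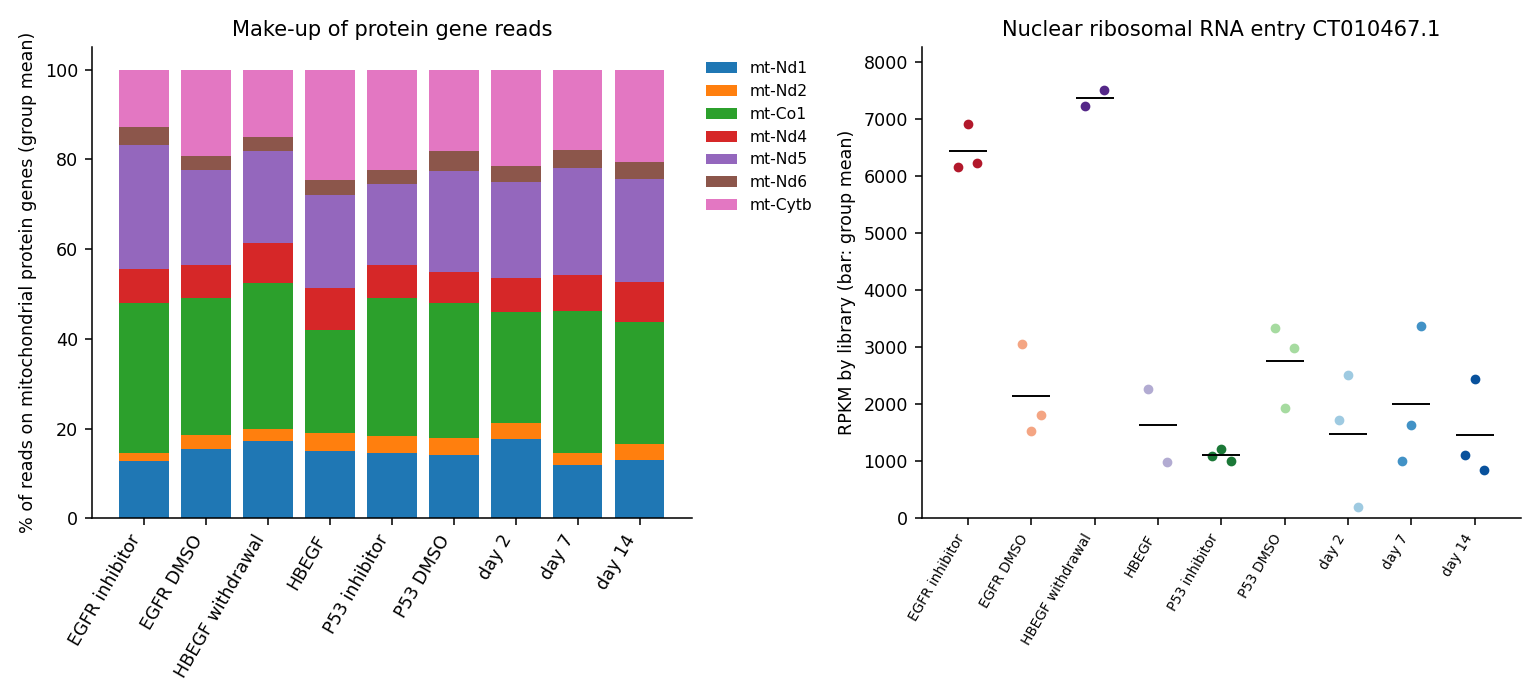
Left, mean percentage of the mitochondrial protein gene reads on each of the 7 counted genes, by group; right, RPKM of the nuclear ribosomal RNA entry CT010467.1 by library, with group means as bars. Cytochrome b takes 12.8% with the EGFR inhibitor and 19.2% with DMSO, and CT010467.1 is highest with the EGFR inhibitor and after HBEGF withdrawal.

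Transfer RNAs adapt each codon to its amino acid, and in the mitochondrion they also mark where the precursors are cut. Of 22, 15 entered the tests. The 4 with a call in any comparison are printed below with their anticodons in capitals (GRCm38, 5′ to 3′, as DNA): mt-Tf for phenylalanine (chrM:1-68, plus strand), mt-Ti for isoleucine (chrM:3706-3774, plus), mt-Tc for cysteine (chrM:5192-5257, minus) and mt-Te for glutamate (chrM:14071-14139, minus). The most abundant, mt-Tl1 for leucine (chrM:2676-2750, plus), follows them.
mt-Tf: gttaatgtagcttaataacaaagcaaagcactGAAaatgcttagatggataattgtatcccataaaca
mt-Ti: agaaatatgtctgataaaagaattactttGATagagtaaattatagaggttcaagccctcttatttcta
mt-Tc: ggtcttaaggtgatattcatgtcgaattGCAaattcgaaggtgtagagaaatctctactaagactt
mt-Te: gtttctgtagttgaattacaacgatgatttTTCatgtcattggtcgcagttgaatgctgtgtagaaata
mt-Tl1: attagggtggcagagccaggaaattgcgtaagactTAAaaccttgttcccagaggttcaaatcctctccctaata

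The gene mt-Tf, first after the control region and next to mt-Rnr1, did not follow mt-Rnr1. It had 142, 172 and 159 RPKM on day 2, 98.1, 59 and 33.5 on day 7 and 55.8, 131 and 104 on day 14. Days 2 and 7 did not overlap (log2 change -1.42 ± 0.36, limma adjusted p = 0.0148), while between days 2 and 14 the difference of -0.78 ± 0.36 did not pass (adjusted p = 0.138). The minus-strand mt-Tc had 42.8, 20.1 and 42.7 RPKM on day 2, 8.87, 9.6 and 15.3 on day 7 and 25.3, 19.5 and 30.5 on day 14 (day 7 against day 2 log2 change -1.52 ± 0.31, adjusted p = 0.00371). These levels came from 3 to 27 reads per library. The neighbour of mt-Nd6, mt-Te, had 6, 5 and 0 reads on day 2, 11, 7 and 3 on day 7 and 23, 9 and 23 on day 14 (day 14 against day 2 log2 change 2.75 ± 0.79, adjusted p = 0.0168). Its call was lost without day 2 replicate 3 (adjusted p = 0.0899), day 14 replicate 1 (0.0718) or day 14 replicate 3 (0.0612). The abundant mt-Tl1 had 96 ± 20.4 RPKM with the EGFR inhibitor, against 162 ± 44.8 with DMSO (SD, n = 3 each; adjusted p = 0.151), and 141 ± 40.9, 67.2 ± 16.8 and 111 ± 34.8 on days 2, 7 and 14 (day 7 against day 2 adjusted p = 0.0815). None of the other 10 tested transfer RNAs was called in any of the 6 comparisons, and their medians lay between 3.62 RPKM (mt-Tn) and 56.2 RPKM (mt-Tp).

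Nuclear genes that serve the mitochondrial genome were read from the same fits, as lists. Of 14 tested genes of mitochondrial transcription and DNA maintenance, 5 were higher and 3 lower with the EGFR inhibitor, and 0 and 6 after HBEGF withdrawal, beside 16.3% of all genes higher and 22.2% lower with the inhibitor and 10.0% and 22.5% after withdrawal. Under median-of-ratios scaling 4 were lower after withdrawal, in place of 6. Tfam, which packages the mitochondrial DNA and starts its transcription, fell to 2.87 ± 0.231 RPKM with the EGFR inhibitor, against 4.94 ± 0.327 with DMSO (adjusted p = 0.000159), and to 2.53 ± 0.374 after withdrawal, against 5.01 ± 0.0813 with HBEGF (SD; limma adjusted p = 0.000189). Polg, the mitochondrial DNA polymerase, fell as well, to 1.44 ± 0.016 RPKM against 2.91 ± 0.103 and to 1.32 ± 0.0063 against 2.35 ± 0.338. On day 14 Polg stood at 2.25 ± 0.0594 RPKM, against 3.84 ± 0.462 on day 2 (adjusted p = 2.49e-05), where Tfam was not called. Mpv17, an inner membrane protein needed to keep mitochondrial DNA, was higher with the EGFR inhibitor at 3.11 ± 0.185 RPKM, against 1.26 ± 0.32 with DMSO.

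Of 24 tested genes of mitochondrial RNA processing and stability, 0 were higher and 14 lower with the EGFR inhibitor (22.2% of all genes were lower), 1 and 12 after withdrawal (22.5%) and 0 and 7 between days 2 and 14 (17.6%). Under median-of-ratios scaling the last count was 4 lower in place of 7. Lrpprc, which stabilises mitochondrial messenger RNAs, stood at 0.774 ± 0.101 RPKM in EGFR inhibitor libraries, against 1.37 ± 0.0713 in their DMSO controls, and at 0.806 ± 0.0656 after withdrawal, against 1.57 ± 0.107 with HBEGF (limma adjusted p = 0.000106 and 0.000177). Trmt10c, a subunit of the enzyme that cuts the 5′ ends of mitochondrial transfer RNAs, fell to 3.5 ± 0.412 RPKM after withdrawal, against 6.92 ± 0.961. Proteins of the mitochondrial ribosome, which surround the ribosomal RNAs described above, had 1 gene higher and 32 lower of 67 with the inhibitor (22.2% of all genes lower) and 0 and 34 after withdrawal (22.5%). Between days 2 and 14 they had 0 and 12, a share near the 17.6% of all genes that were lower. Their median log2 differences were -0.29, -0.41 and -0.18, against -0.02, -0.10 and -0.11 over all genes. Mrpl18 stood at 5.57 ± 0.629 RPKM with the inhibitor, against 10.6 ± 0.811 with DMSO, and at 3.27 ± 0.161 after withdrawal, against 9.61 ± 0.391 with HBEGF.

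A chosen list held 20 nuclear subunits of the complexes that hold the mitochondrially encoded proteins, and not every such subunit. Of these 20, 14 were lower with the EGFR inhibitor and 12 after withdrawal, with 0 higher in both. Of all genes 22.2% and 22.5% were lower. Cyc1, cytochrome c1 and the partner of cytochrome b in complex III, fell to 19.7 ± 3.21 RPKM with the inhibitor, against 48.3 ± 3.12 with DMSO (limma adjusted p = 9.62e-07), and to 21.8 ± 0.943 after withdrawal, against 55.7 ± 1.77 with HBEGF (adjusted p = 8.61e-06). On day 14 it stood at 45 ± 8.47 RPKM, against 61.7 ± 5.05 on day 2 (adjusted p = 0.0159), the only 1 of the 20 called in that comparison, where mt-Cytb was higher. Median-of-ratios scaling called 3 of the 20 higher and 0 lower between those days, and left 25 mitochondrial ribosome genes lower in place of 34 after withdrawal and 4 in place of 12 between days 2 and 14. Among nuclear regulators of these genes, 0 were higher and 2 lower of 6 with the inhibitor (22.2% of all genes lower), 0 and 4 after withdrawal (22.5%), and 1 and 4 between days 2 and 14 (17.6%). Under median-of-ratios scaling the counts were 1 and 4 after withdrawal and 1 and 2 between the days. The coactivator Ppargc1a was higher on day 14, at 1.68 ± 0.0308 RPKM, against 0.908 ± 0.219 on day 2 (adjusted p = 0.000327), and its relative Pprc1 lower, at 1.12 ± 0.334 against 2.68 ± 0.512 (adjusted p = 0.000282). With the P53 inhibitor 0 genes of these 5 lists were called by limma, beside 0.181% of all genes, and 1 by median-of-ratios scaling.

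Of a preset list of 10 annotated nuclear copies, which leaves out Gm4076 of mt-Nd5, 9 were tested. With the EGFR inhibitor 0 of 9 were called, and after HBEGF withdrawal Gm29216 (2.77 ± 0.485 RPKM against 0.5 ± 0.707; adjusted p = 0.0267) and Gm13340 (5.19 ± 1.03 against 2.47 ± 0.0421; adjusted p = 0.0296) were higher and Gm28661 (1.03 ± 0.19 against 2.55 ± 0.134; SD, n = 2 each; adjusted p = 0.0495) lower. The 2 higher and 1 lower of 9 stand beside 10.0% of all genes higher and 22.5% lower after withdrawal. With the EGFR inhibitor 38.5% of all genes were called. Group means of these entries were at most 5.19 RPKM, so the calls rest on low levels. Under median-of-ratios scaling 2 of the 9 were higher and 0 lower after withdrawal. Both higher entries match mt-Co1. Gm13340 was also higher on day 7 (3.42 ± 0.961 RPKM; limma adjusted p = 0.0261) and on day 14 (3.27 ± 0.753; 0.0216) than on day 2 (1.53 ± 0.523; SD, n = 3 each).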

How the data were processed

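The RPKM values were deposited by the authors as 1 table of 25 libraries; STAR, HTSeq, edgeR, limma and the build GRCm38 are named in the submitters' processing notes, with versions, strand setting and the handling of multiply matching reads not given in the sources used here. Multiplied by gene span, each library's RPKM summed to about 1.00e+06, so values were scaled over whole gene spans; intron-rich genes are thereby lowered relative to mitochondrial genes, which have no introns. Reads recovered from RPKM and span lay within 0.1 of a whole number for 99.0 to 99.2% of values of up to 20 reads.

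Tests used limma 3.58.1 (R 4.3.3) on log2(RPKM + 1), which understates changes of low genes, over genes with at least 1 RPKM in 2 libraries, with 9 group means and 16 residual degrees of freedom, and Benjamini-Hochberg adjustment within each comparison. The script was tested on simulated data. Ratios were tested by exact permutation. Copies were searched with BLAST 2.17.0 among GENCODE M21 transcripts (at least 95% identity over 100 bases), a search chosen after seeing the data. All members that passed the filter were eligible for naming; from each nuclear list up to 4 genes per direction and comparison, by p, were eligible. Members and lists were chosen with earlier results of these data known. Alternatives were another pseudocount, other filters, other scalings, voom on recovered reads, each experiment alone, a replicate block, and leaving out each library.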

Additional observations from a re-analysis of the deposited data

Results flagged for a closer look

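The change of mt-Rnr1 differed between the EGFR inhibitor and HBEGF withdrawal, by -1.16 on the log2 scale (limma adjusted p = 0.00585); its level was higher in both withdrawal libraries than in any of the 3 inhibitor libraries. The change of mt-Nd3 differed in the other direction, by 1.59 (limma adjusted p = 0.0494), on 0 to 5 reads per library. Both calls were lost with a replicate block, and treatment cannot be told apart from the control and the timing here.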

How the results depend on the processing

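A filter of 5 RPKM left 2069 genes called with the EGFR inhibitor, 1882 after HBEGF withdrawal, 8 with the P53 inhibitor, 825 between days 2 and 7 and 1267 between days 2 and 14, and 1 mitochondrial gene in the difference between EGFR inhibitor and withdrawal. That filter tests fewer genes than the 13850 of the main fit, and no filter tests more. Counts under either are therefore not out of the same number of genes. Fitted alone, the EGFR libraries gave 10 mitochondrial calls of 25 tested. The share of all genes called in that fit is not given here. In the main fit it was 38.5%, so the 10 are not read as a result about these genes. Fitted alone, the HBEGF libraries gave 0 genes and 0 mitochondrial genes. The days gave 190 genes and 0 mitochondrial genes (7 against 2), 0 genes (14 against 7, with 938 at an unadjusted p under 0.05 by limma) and 1287 genes with 1 mitochondrial gene (14 against 2). The difference kept 1 mitochondrial call. Counts were 40 (P53) and 1 (mitochondrial, difference) under median-of-ratios scaling, 75 (P53), 51 and 1 mitochondrial (14 against 7) by voom, and 44 (14 against 7) with no filter. Leaving out 1 library gave 2 to 65 genes for P53, 938 to 2037 genes and 2 to 7 mitochondrial genes for day 7 against 2, 0 to 25 and 0 to 1 for day 14 against 7, 2080 to 3376 genes for day 14 against 2, and 1 to 2 mitochondrial genes in the difference. With exon length in place of span for other genes, the same calculation gave means of 46.9% ribosomal RNA, 4.55% protein genes and 0.00755% transfer RNA. The deposited values were scaled by span, so these are not shares of the counted reads.

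Signs turned for uncalled genes only. With the EGFR inhibitor mt-Nd4 was 0.0105 (median-of-ratios), 0.0847 (reads outside the mitochondrial genome) and 0.0181 (voom), and -0.0174 to 0.0190 without 1 library. After withdrawal mt-Nd5 was 0.00695 and 0.0798 under both scalings, and mt-Nd6 0.00513 and mt-Nd4 0.0257 under the second. Leaving out 1 library gave -0.10 to 0.28 for mt-Nd1 after withdrawal, -0.28 to 0.00272 for mt-Nd5 with the P53 inhibitor, -0.12 to 0.18 for mt-Cytb and -0.34 to 0.0923 for mt-Nd2 on day 7 against 2, and -0.0105 to 0.48 for mt-Nd1 on day 14 against 2. The causes were not tested.

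The labels do not say whether a replicate number marks a shared preparation. Over the days, correlations of same-numbered deviations from group means were -0.0951 to 0.118, and those of unlike numbers -0.146 to 0.0752. Deviations within such small groups cannot exclude pairing. A replicate block gave 6 genes for P53, 7 for day 14 against 7 and 0 mitochondrial genes in the difference (adjusted p = 0.0505 for mt-Rnr1 and 0.095 for mt-Nd3), and lost mt-Ti with the EGFR inhibitor (0.103), mt-Tf on day 7 (0.0558) and mt-Nd2 on day 14 (0.114). Depth limits the transfer RNAs most, at 78 to 407 reads per library.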
